A study of Homo sapiens with 6 samples.

Results

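The genes described here are 40 human DNA repair and replication checkpoint genes, chosen by name from a count table of 23459 genes, and all 40 were found in it. By their roles, 11 act in homologous recombination, 10 in the Fanconi anaemia pathway, 4 in the sensing and resection of DNA breaks, 4 are members of the BLM helicase complex or the nuclease EXO1, 2 act in mismatch repair and 9 in checkpoint signalling. The study examined how JUN, a subunit of AP-1, and the transcriptional coactivators YAP and TAZ work on shared targets. The libraries used here are from MCF10A, an untransformed human mammary epithelial cell line, grown in one medium with horse serum, insulin, hydrocortisone, cholera toxin and EGF. The description of every library carries the label WT, which it does not explain. Cells received 20 nM of a non-targeting control siRNA (siCtrl, 3 libraries) or of siRNA against YAP and TAZ (siYAP/TAZ, 3 libraries), TAZ being the protein encoded by WWTR1. The labels give no time after transfection and do not say whether replicates came from separate cultures, so p-values measure the spread between these libraries, which may be technical.

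Cells repair DNA breaks and crosslinks most accurately while DNA is being copied or after it has been copied, when a sister chromatid can serve as the template. The Fanconi anaemia pathway recognises crosslinks that block a replication fork, the recombination proteins led by BRCA2 act on resected DNA, and the kinases ATM and ATR with their effectors CHEK2 and CHEK1 hold the cell cycle until the damage is dealt with. Many of these genes are transcribed mainly from late G1 into S phase, in part through E2F factors.

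The windows printed here are promoters of 7 of the genes, shown because UBE2T was the member past the threshold with all libraries, BRIP1, BLM, FANCD2 and FANCG passed it when libraries were paired, CLSPN varied most among the controls and FANCE was the member whose siYAP/TAZ libraries were all higher. They were picked after their values were seen. BRCA2 and RBBP8 also passed with paired libraries and are not printed because their windows in the table held no match to the motifs marked here, so the printed set leans toward windows with matches. RMI2 passed as well and has no entry in the table. Each runs 5′ to 3′ on the strand of the gene over 190 bases, 160 before and 30 from the annotated start, and comes from RefSeq on the build GRCh38.p14. Capitals mark matches on either strand to 3 motifs: E2F (TTCCCGC or TTGGCGC), the cell cycle homology region (CHR, TTTGAA) and the CCAAT box (CCAAT).
UBE2T: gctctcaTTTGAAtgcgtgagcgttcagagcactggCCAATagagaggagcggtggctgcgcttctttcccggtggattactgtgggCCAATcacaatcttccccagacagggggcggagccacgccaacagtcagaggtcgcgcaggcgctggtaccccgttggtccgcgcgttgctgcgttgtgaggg
BRIP1: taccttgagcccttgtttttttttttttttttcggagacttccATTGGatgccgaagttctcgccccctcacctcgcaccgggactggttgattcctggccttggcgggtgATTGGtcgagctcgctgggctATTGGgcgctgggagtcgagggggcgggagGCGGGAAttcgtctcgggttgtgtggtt
BLM: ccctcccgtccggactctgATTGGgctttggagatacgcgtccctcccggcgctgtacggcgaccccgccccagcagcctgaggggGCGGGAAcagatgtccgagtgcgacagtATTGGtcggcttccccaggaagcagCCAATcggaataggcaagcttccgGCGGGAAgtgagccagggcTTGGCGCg
FANCD2: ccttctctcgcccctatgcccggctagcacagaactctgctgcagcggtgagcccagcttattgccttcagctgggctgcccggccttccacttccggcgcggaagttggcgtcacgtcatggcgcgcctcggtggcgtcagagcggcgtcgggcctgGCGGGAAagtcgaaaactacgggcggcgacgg
FANCG: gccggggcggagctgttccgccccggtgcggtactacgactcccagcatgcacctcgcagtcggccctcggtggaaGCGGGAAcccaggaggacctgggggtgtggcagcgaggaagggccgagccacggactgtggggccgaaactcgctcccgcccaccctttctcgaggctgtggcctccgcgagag
CLSPN: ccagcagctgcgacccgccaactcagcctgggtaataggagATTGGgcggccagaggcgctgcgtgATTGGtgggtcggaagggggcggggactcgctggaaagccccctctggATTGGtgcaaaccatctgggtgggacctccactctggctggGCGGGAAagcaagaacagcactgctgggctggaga
FANCE: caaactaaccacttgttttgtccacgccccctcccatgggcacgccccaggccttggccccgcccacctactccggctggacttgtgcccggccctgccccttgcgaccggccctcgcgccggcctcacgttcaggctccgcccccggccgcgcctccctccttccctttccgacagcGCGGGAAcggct
The UBE2T window is chr1:202341907-202342096 (minus strand). The BRIP1 window is chr17:61863499-61863688 (minus strand). The BLM window is chr15:90717186-90717375 (plus strand). The FANCD2 window is chr3:10026277-10026466 (plus strand). The FANCG window is chr9:35079913-35080102 (minus strand). The CLSPN window is chr1:35769949-35770138 (minus strand). The FANCE window is chr6:35452178-35452367 (plus strand). The UBE2T window had a CHR match and a pair of CCAAT boxes. The window of BLM held 3 E2F matches and 3 CCAAT boxes, and BRIP1 and CLSPN each held 1 E2F match with 3 CCAAT boxes. FANCD2, FANCG and FANCE had 1 E2F match each and no capital letters from the other motifs.

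Longer windows of 300 bases, 250 before and 50 from the start, were listed for 36 of the 40 genes, with 52 windows in all because some genes have several starts. The E2F letters were in 24 of the 52 windows (46.2%), from 19 genes, against 9.23% of all 35116 windows in the table and 13.4% of the windows of the genes tested. The CCAAT box was in 28 windows (53.8%) against 34.6% of all windows and 35.2% of those of tested genes. CHR letters were in 4 windows (7.69%) against 15.2% and 11.1%. The letters of the motif of TEAD, the DNA partner of YAP and TAZ (CATTCC), were in 11 windows (21.2%) from 7 genes, against 14% and 11.5%. No window held the AP-1 letters (TGANTCA), which were in 7.71% of all windows and 5.35% of those of tested genes. Windows of one gene can overlap, so one site can be counted more than once. These are matches to letters, and they say nothing about binding in these cells.

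Libraries held 3175149 to 4317286 counts, and the 40 genes took 5398 to 10284 counts of a library, or 0.170% to 0.264%. All 40 genes passed the filter on low counts. The total count of a gene over the 6 libraries ran from 134 (PMS2) to 8579 (RAD50), with a median of 670 and a lowest single count of 10 (XRCC2, siCtrl replicate 2). Levels are given as CPM, which puts all libraries on one depth after TMM correction. YAP1 was at 57.5% of its mean control level and WWTR1 at 61.8% in the siYAP/TAZ libraries. The title and genotype of siCtrl replicate 2 name siYAP/TAZ and those of siYAP/TAZ replicate 2 name the control, against the descriptions used here. YAP1 and WWTR1 were at control level in the former and depleted in the latter. Titles also number some libraries otherwise than the descriptions, and the pairs used below follow the descriptions. The 10 basal mammary epithelial markers were above the 3-count floor in every library, with summed CPM of 3246 to 3703 in siCtrl and 2311 to 2643 in siYAP/TAZ. Of the fibroblast markers 3 of 4, and of the immune markers 3 of 5, were at or under the floor in all libraries. The endothelial markers summed to 2.26 to 4.01 CPM in siCtrl and 5.67 to 12.9 CPM in siYAP/TAZ.

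Most of the genes were lower after depletion of YAP and TAZ, and few were lower by more than the controls differed among themselves. The log2 fold change of siYAP/TAZ over siCtrl was below 0 for 35 of the 40 genes, against 50.1% of the 12510 genes tested, and its median was -0.43 against -0.0009 over all genes tested. In bulk RNA, fewer cells of a kind and less RNA per cell cannot be told apart. In the quasi-likelihood test of edgeR, with p-values adjusted by the Benjamini-Hochberg method, 1 of the 40 genes, UBE2T, fell past an adjusted p of 0.05, where 1.22% of all genes were called lower. None of the 40 was called higher, where 0.743% of all genes were; 0 were higher at an unadjusted p under 0.05 and 0 were called higher by DESeq2. At an unadjusted p under 0.05, 14 of the 40 were lower, against 9.27% of all genes.

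With the replicate number as a block, 8 of the 40 were called lower and 0 higher, against 5.44% and 4.66% of all genes. The 8 were UBE2T, BLM, RMI2, BRCA2, FANCG, BRIP1, FANCD2 and RBBP8. The median log2 fold change was -0.42 in that fit. Without siCtrl replicate 2, 16 genes were called lower and 0 higher (6.22% and 6.08% of all genes), 6 of them among the 8 of the blocked fit, and the median was -0.61. That library was the lowest control for 31 of the 40 genes, so leaving it out raises the control mean of those genes. Without both libraries whose labels disagree, 13 were called lower and 0 higher (4.64% and 4.65%). With the groups of the titles, 0 were called and 2 were lower at an unadjusted p under 0.05 in edgeR. No gene was called by edgeR in 4 of the fits with 1 library left out: without siCtrl replicate 1 there were 6 genes at an unadjusted p under 0.05, without siCtrl replicate 3 there were 2, without replicate 2 of siYAP/TAZ 4 and without its replicate 3 5. Without siYAP/TAZ replicate 1, UBE2T alone was called.

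**Figure D1:**
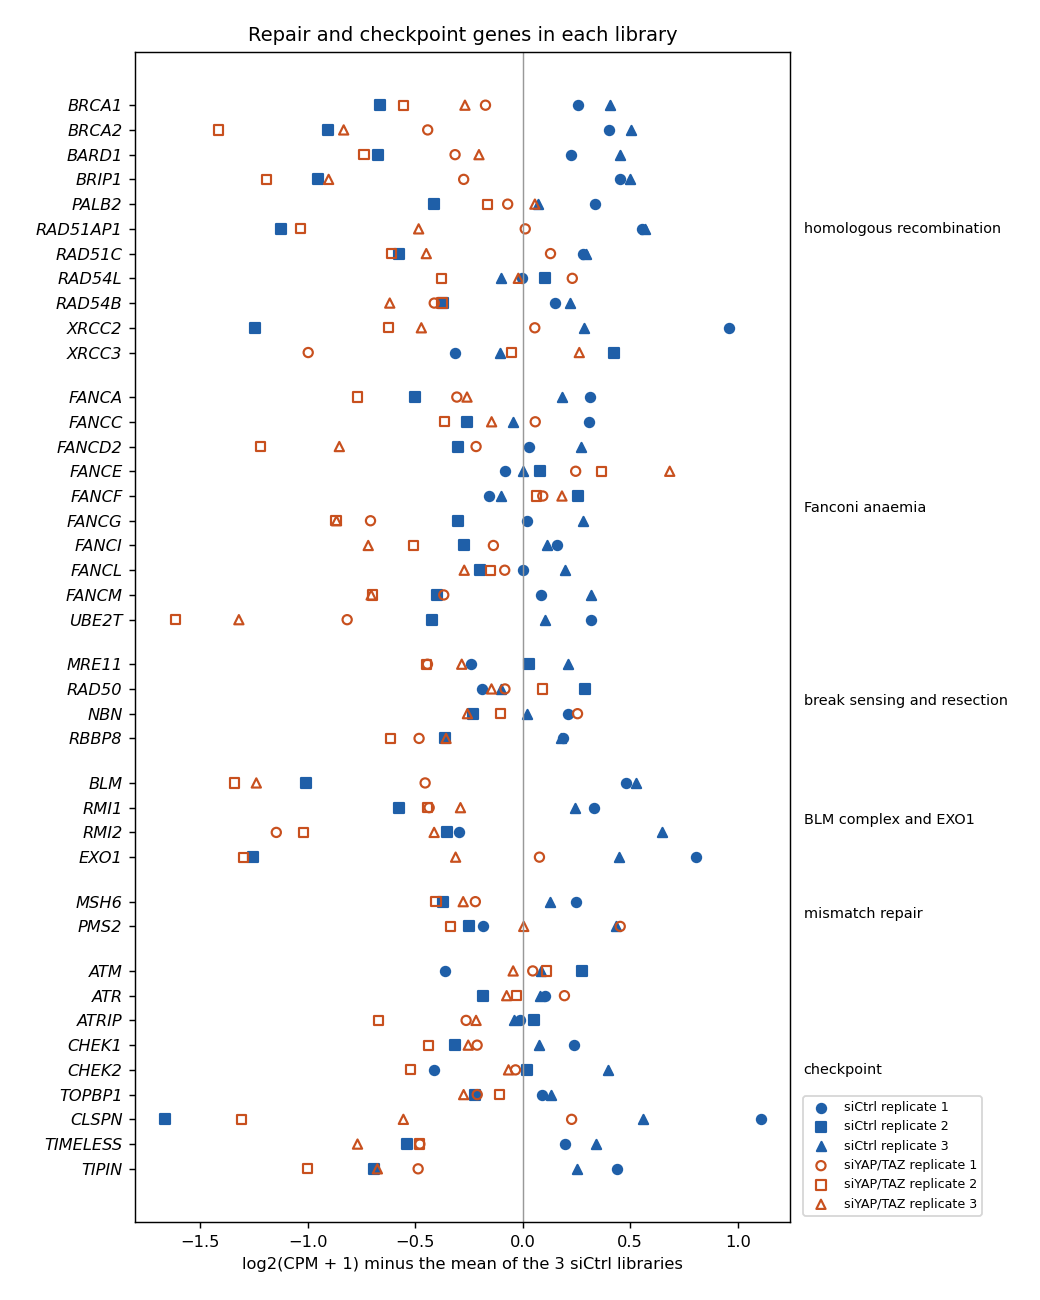
Level of the 40 genes in each library, as log2(CPM + 1) minus the mean of the 3 siCtrl libraries (horizontal axis, log2 scale), with genes in rows by role, filled blue symbols for siCtrl and open orange symbols for siYAP/TAZ, and a shape for each replicate. siCtrl replicate 2 (filled square) was the lowest control library for 31 of the 40 genes and often lay among the siYAP/TAZ libraries.

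In siCtrl replicate 2, 31 of the 40 genes were at their lowest control level, against 39.7% of the genes tested. Its level minus the mean of siCtrl replicates 1 and 3 had a median of -0.54 on the log2(CPM + 1) scale, with 31 genes below 0. siYAP/TAZ replicate 2 minus the mean of the other siYAP/TAZ libraries had a median of -0.22, with 33 genes below 0. The medians of both differences over all genes tested were 0.0036 and -0.003. Across the 40 genes the deviations of both libraries, which share no sample, had a Pearson r of 0.71, and across 12510 genes it was 0.35. Genes are not independent replicates, and both values are descriptions. In 11 genes the highest control was at least 2 times the lowest, led by CLSPN (7.27), XRCC2 (5.77), EXO1 (4.50), RAD51AP1 (3.51) and BLM (3.04).

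**Figure D2:**
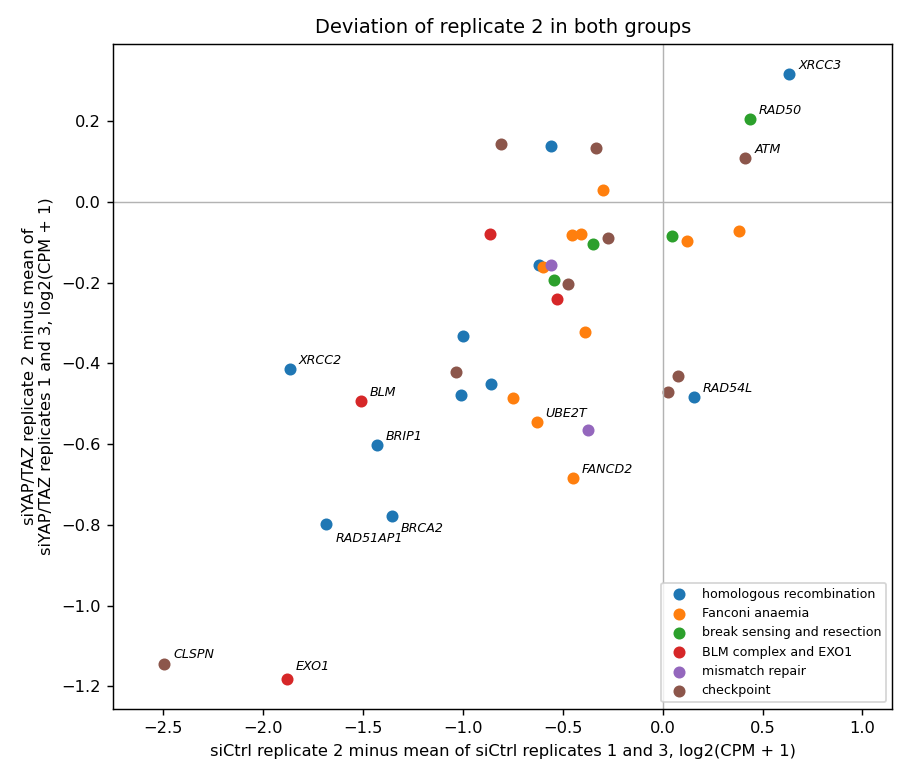
Each of the 40 genes by its deviation in siCtrl replicate 2 from the mean of siCtrl replicates 1 and 3 (horizontal axis) and in siYAP/TAZ replicate 2 from the mean of siYAP/TAZ replicates 1 and 3 (vertical axis), both as differences of log2(CPM + 1), with colours for roles. CLSPN and EXO1 lay farthest toward the lower left, and XRCC3, RAD50 and ATM were above 0 on both axes.

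Taken by pairs of the same replicate number, 21 of the 40 genes were lower in siYAP/TAZ in all 3 pairs, against 22.8% of all genes, and 1 gene, FANCE, was higher in all 3, against 23.3%. The median difference over the 40 genes was -0.45 in pair 1, -0.14 in pair 2 and -0.53 in pair 3, while the medians over all genes were between 0.0008 and 0.0043. Every siYAP/TAZ library was below every siCtrl library for 6 genes (RAD54B, FANCG, UBE2T, MRE11, RMI2 and ATRIP), where 11.1% of all genes did so. FANCE alone had every siYAP/TAZ library above every siCtrl library, where 11.0% of all genes did.

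**Figure D3:**
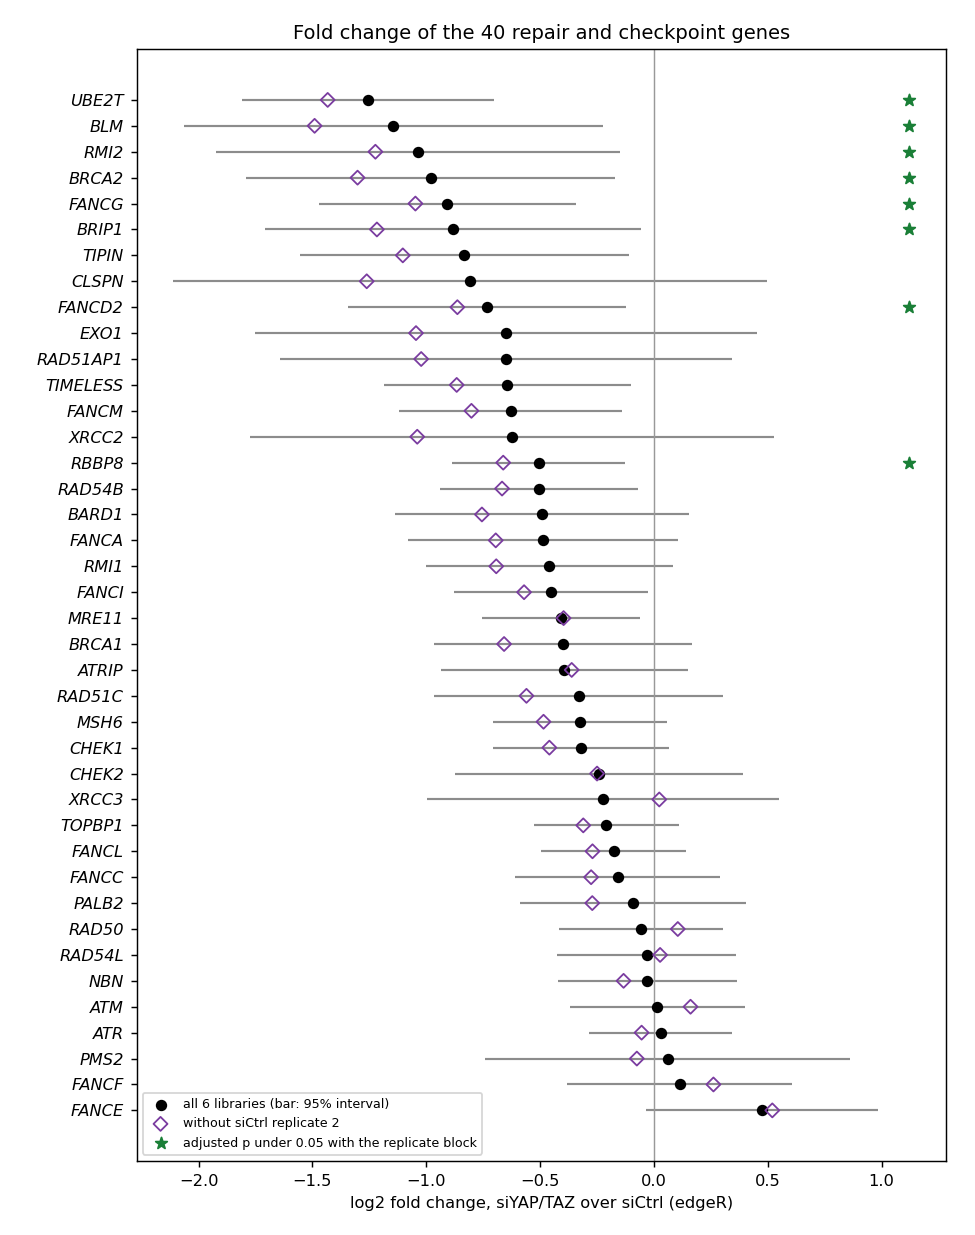
Fitted log2 fold change of siYAP/TAZ over siCtrl for the 40 genes (horizontal axis), sorted, with black points and 95% intervals for all 6 libraries, open diamonds for the fit without siCtrl replicate 2 and stars for genes past an adjusted p of 0.05 with the replicate block. The points ran from -1.26 for UBE2T to 0.47 for FANCE, and most diamonds lay to the left of their points.

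The Fanconi anaemia genes held the member that fell past the threshold. UBE2T (Entrez 29089, GRCh37 chr1:202300672-202311112, minus strand) is the ubiquitin-conjugating enzyme that works with the ligase FANCL to attach ubiquitin to FANCD2 and FANCI. It had 104, 61.7 and 89.2 CPM in the controls (replicates 1, 2 and 3) against 46.7, 26.4 and 32.6 CPM after siYAP/TAZ. All siYAP/TAZ libraries were lower than all siCtrl libraries, and the lowest library of each group was replicate 2. The means were 84.9 ± 21.3 and 35.3 ± 10.4 CPM (SD, n = 3), which left 41.5% of the control level. For this gene the fitted log2 ratio was -1.26 (SE 0.25), with an adjusted p of 0.0354 by edgeR, and -1.27 with an adjusted p of 0.00052 with the replicate block. It passed the threshold in 10 of 15 alternatives and not without siCtrl replicate 1 (adjusted p 0.11), siCtrl replicate 3 (0.165), replicate 2 of siYAP/TAZ (0.124) or its replicate 3 (0.196), nor with the groups of the titles (0.898).

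FANCD2 (Entrez 2177, GRCh37 chr3:10068054-10143616, plus strand), which with FANCI is the ubiquitinated centre of the pathway, had 35.9, 28.4 and 42.7 CPM in the controls against 30.1, 14.5 and 19.0 CPM after siYAP/TAZ. The groups overlapped, since siYAP/TAZ replicate 1 was above siCtrl replicate 2, while each pair showed the lower value in siYAP/TAZ. The fit put the log2 ratio at -0.73 (SE 0.27; edgeR adjusted p 0.21) and -0.77 (SE 0.21, adjusted p 0.0421) with the replicate block. Reads of FANCD2 cannot be told from those of FANCD2OS on the opposite strand unless counting used strand, which the sources used here do not give. FANCG (Entrez 2189, GRCh37 chr9:35073832-35080001, minus strand), a subunit of the core complex, had 14.9, 11.7 and 18.1 CPM in the controls against 8.61, 7.6 and 7.62 CPM after siYAP/TAZ, with no overlap. In log2 terms the fitted ratio was -0.91 (SE 0.25; edgeR adjusted p 0.103) and -0.90 with the block (SE 0.25, adjusted p 0.045).

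FANCF, an adaptor of the core complex, had the fold change nearest to 0 of the 10 Fanconi anaemia genes, with 12.1, 16.4 and 12.6 CPM in the controls against 14.5, 14.2 and 15.5 CPM after siYAP/TAZ. The siYAP/TAZ libraries lay between the lowest and the highest control. Its fitted log2 ratio to siCtrl was 0.11 (SE 0.22; edgeR adjusted p 0.833) with a 95% interval of -0.38 to 0.61. FANCE, the core subunit that binds FANCD2, was named after its values were seen. It had 10.6, 12 and 11.3 CPM in the controls against 13.6, 14.9 and 18.8 CPM after siYAP/TAZ. Every siYAP/TAZ library was higher than every control, yet the log2 fold change of 0.47 (SE 0.23) had an adjusted p of 0.313 by edgeR and 0.219 with the block. The log2 fold changes of FANCA, FANCC, FANCI, FANCL and FANCM, the other core, ubiquitinated, ligase and fork-remodelling members, ran from -0.63 (FANCM) to -0.16 (FANCC), and 2 of these 5, FANCI and FANCM, had an unadjusted p under 0.05. FANCA, FANCC, FANCF, FANCI and FANCL overlap genes on the opposite strand.

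The homologous recombination genes had log2 fold changes below 0 for 11 of 11 members and a median of -0.49. BRCA2 (Entrez 675, GRCh37 chr13:32889223-32974405, plus strand), which acts on the single-stranded DNA of resected ends, had 72.4, 28.7 and 77.7 CPM in the controls against 39.9, 19.8 and 30.2 CPM after siYAP/TAZ. The groups overlapped only through siCtrl replicate 2, which lay below siYAP/TAZ replicates 1 and 3. For this gene the fitted log2 ratio was -0.98 (SE 0.36; edgeR adjusted p 0.207), -0.95 with the block (SE 0.17, adjusted p 0.00723) and -1.30 without siCtrl replicate 2 (adjusted p 0.00575). With any other single library left out, its edgeR adjusted p was 0.18 to 0.53.

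BRIP1 (Entrez 83990, GRCh37 chr17:59756500-59940920, minus strand), the helicase that binds BRCA1, had 94.2, 34.9 and 97.3 CPM in the controls against 56.4, 29.4 and 36.2 CPM after siYAP/TAZ. The value of siCtrl replicate 2 was again within the siYAP/TAZ range. The fit put the log2 ratio at -0.88 (SE 0.37; edgeR adjusted p 0.255), -0.84 with the block (adjusted p 0.0225) and -1.22 without siCtrl replicate 2 (adjusted p 0.00714). With any other single library left out, the edgeR adjusted p of BRIP1 was 0.19 to 0.59. RAD54L, a motor protein of strand exchange, had 58.6, 63.3 and 54.8 CPM in the controls against 69.1, 45 and 57.9 CPM after siYAP/TAZ. The ranges overlapped and the log2 fold change was -0.03 (SE 0.18; edgeR adjusted p 0.944) with a 95% interval of -0.42 to 0.36. LRRC41 lies on the opposite strand of RAD54L. BRCA1, a ubiquitin ligase subunit that directs repair to recombination, was named after its values were seen, and had 110, 57.4 and 122 CPM in the controls against 81.1, 62.1 and 75.9 CPM after siYAP/TAZ. The log2 fold change of BRCA1 was -0.40 (SE 0.25; edgeR adjusted p 0.448), 0.176 as adjusted p with the block and 0.0177 without siCtrl replicate 2. With any other single library left out, the edgeR adjusted p of BRCA1 was 0.44 to 0.84. The other 7 genes of the role are BARD1 (the partner of BRCA1), PALB2 (which joins BRCA1 to BRCA2), RAD51AP1, RAD51C, XRCC2 and XRCC3 (all factors of strand exchange), and RAD54B (a relative of RAD54L). They had log2 fold changes between -0.65 and -0.09. Only RAD54B of these had groups that did not overlap. BRCA1 and XRCC3 overlap a gene on the opposite strand and RAD54B one on its own strand, so their counts may hold reads of a neighbour.

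BLM (Entrez 641, GRCh37 chr15:91260577-91359396, plus strand), the helicase that dissolves joined recombination intermediates with RMI1 and RMI2, had 39.9, 13.6 and 41.2 CPM in the controls against 20.4, 10.6 and 11.4 CPM after siYAP/TAZ. siCtrl replicate 2 lay between siYAP/TAZ replicates 1 and 3. In log2 terms the fitted ratio was -1.14 (SE 0.41; edgeR adjusted p 0.194), -1.12 with the block (SE 0.26, adjusted p 0.0222) and -1.49 without siCtrl replicate 2 (adjusted p 0.00541). RMI2 (Entrez 116028, GRCh37 chr16:11343476-11475519, plus strand) had 7.75, 7.41 and 15.8 CPM in the controls against 3.85, 4.3 and 7.07 CPM after siYAP/TAZ. The groups did not overlap, though siCtrl replicate 3 was about 2 times the others. The log2 fold change of RMI2 was -1.04 (SE 0.40, edgeR adjusted p 0.22) and -1.01 with the block (SE 0.28, adjusted p 0.0477). RMI2 overlaps genes on the opposite strand. RMI1 had the smallest fold change of this role, with 41.9, 21.9 and 39.5 CPM in the controls against 24.3, 24.1 and 26.9 CPM after siYAP/TAZ. Its siYAP/TAZ libraries lay above siCtrl replicate 2 and below the other controls. Its fitted log2 ratio to siCtrl was -0.46 (SE 0.24; edgeR adjusted p 0.359; 0.0218 without siCtrl replicate 2). No fit with any other single library left out called BLM or RMI1. EXO1, a nuclease of resection and mismatch repair, had a log2 fold change of -0.65 and its highest control was 4.50 times its lowest.

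**Figure D4:**
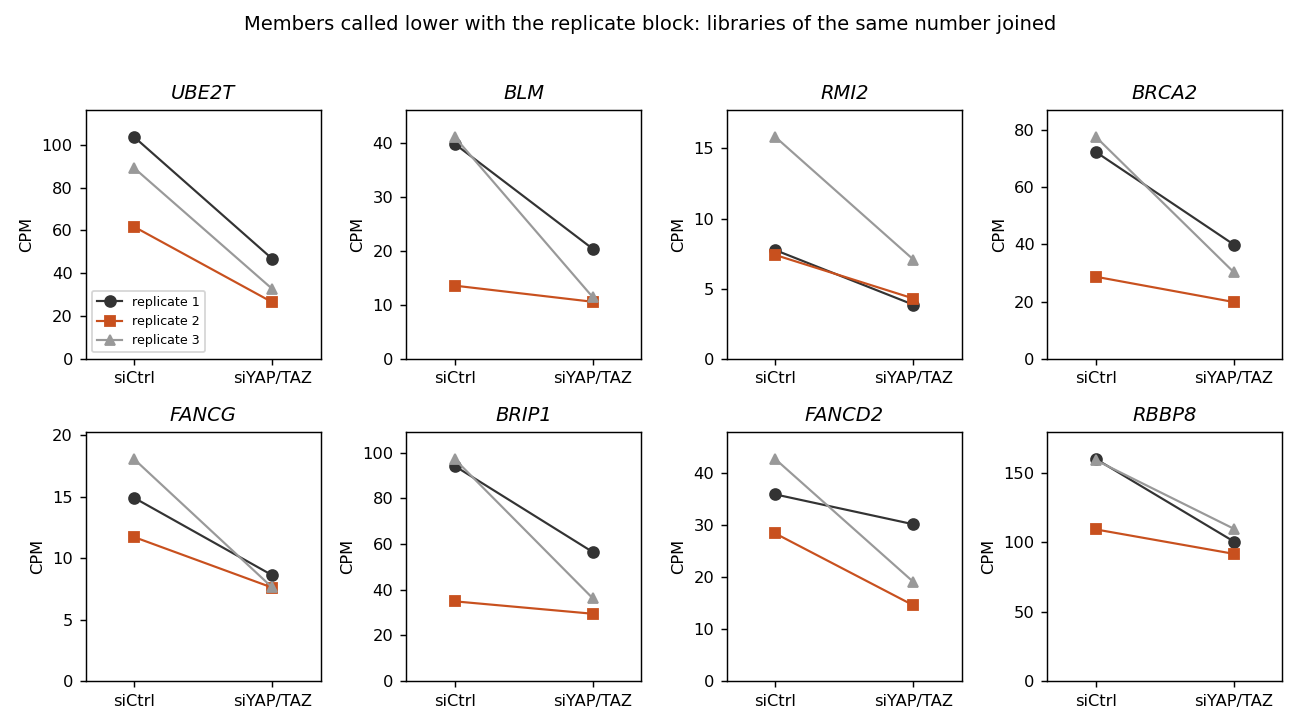
CPM of the 8 genes past the threshold with the replicate block (vertical axes, from 0, one scale for each gene), with lines joining the siCtrl and siYAP/TAZ library of the same replicate number. All lines go down, and in BLM, BRCA2 and BRIP1 the line of replicate 2 starts far below the others.

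Of the genes for break sensing and resection, RBBP8 (Entrez 5932, GRCh37 chr18:20378224-20606451, plus strand), which starts the trimming of broken ends with the MRE11 complex, had 160 CPM in siCtrl replicate 1, 109 in replicate 2 and 159 in replicate 3, and 100.4, 91.6 and 109.6 CPM in siYAP/TAZ. The groups overlapped because siCtrl replicate 2 was just below siYAP/TAZ replicate 3. For this gene the fitted log2 ratio was -0.51 (SE 0.17; edgeR adjusted p 0.166) and -0.49 with the block (SE 0.12, adjusted p 0.0302). NBN, the subunit that recruits ATM, had 103, 75.6 and 90.2 CPM in the controls against 106, 82.6 and 74.3 CPM after siYAP/TAZ. The ranges overlapped almost wholly, with a log2 fold change of -0.03 (SE 0.18; edgeR adjusted p 0.95; 95% interval -0.42 to 0.37). NBN overlaps genes on the opposite strand. RAD50, the ATPase of the complex, had a log2 fold change of -0.06 and MRE11, its nuclease, one of -0.41 with no overlap between groups.

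For mismatch repair, MSH6, which recognises mispaired bases, stood at -0.32 on the log2 scale (SE 0.17; edgeR adjusted p 0.356) and overlaps FBXO11 on the opposite strand. PMS2, an endonuclease of this pathway, had 4.88, 4.63 and 8.04 CPM in the controls against 8.16, 4.3 and 5.71 CPM after siYAP/TAZ. The groups overlapped and the log2 fold change was 0.06 (SE 0.36; edgeR adjusted p 0.95; 95% interval -0.74 to 0.86). PMS2 has near-identical copies among which reads can be split, so its level is uncertain, and its interval is wide at these counts.

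Of the 9 checkpoint genes 7 had fold changes below 0, and the median on the log2 scale was -0.32. ATM, the kinase activated by broken ends, had 65.5, 102.5 and 89.7 CPM in the controls against 87.3, 91.2 and 81.9 CPM after siYAP/TAZ, with the siYAP/TAZ libraries inside the control range. The fit put the log2 ratio at 0.02 (SE 0.17; edgeR adjusted p 0.974; 95% interval -0.37 to 0.40). ATR, the kinase of stalled forks, was at 0.03, and its partner ATRIP at -0.39 with no overlap between groups. The effector kinases CHEK1 and CHEK2 were at -0.32 and -0.24, and TOPBP1, the activator of ATR, at -0.21. CHEK2 has near-identical copies and is uncertain, ATM and CHEK2 overlap genes on the opposite strand, and CHEK1 and ATRIP overlap one on their own. TIMELESS and TIPIN, which form the fork-protection complex, were at -0.64 and -0.83, and CLSPN, the adaptor through which ATR reaches CHEK1, was at -0.81. With all libraries, none of the 9 passed the threshold by DESeq2 or by edgeR, with or without the block. TIPIN had an adjusted p of 0.0506 by edgeR with the block. At an unadjusted p under 0.05 in edgeR, 2 were lower without the block and 4 with it. Without siCtrl replicate 2, edgeR called 3 lower: TIMELESS (adjusted p 0.0106), TIPIN (0.0154) and CLSPN (0.0335). No fit with any other single library left out called a checkpoint gene.

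CLSPN was described further after its values were seen, because its controls spread most. It had 94.2, 13 and 64.1 CPM in the controls against 50.8, 16.9 and 29.1 CPM after siYAP/TAZ. siCtrl replicate 2 was the lowest of all 6 libraries, so the groups overlapped, and in pair 2 the siYAP/TAZ library was the higher one. The log2 fold change of -0.81 had an SE of 0.58 with an adjusted p of 0.507 by edgeR, and without siCtrl replicate 2 it was -1.26 (SE 0.33, adjusted p 0.0335).

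The S-phase markers spread among the controls too. The summed CPM of 10 S-phase markers was 819, 256 and 670 in siCtrl replicates 1, 2 and 3 and 497, 270 and 355 in siYAP/TAZ. siCtrl replicate 2 was the lowest of the 6 libraries in that sum. The sum of the 40 repair and checkpoint genes was 2548, 1989 and 2584 CPM in the controls against 2066, 1784 and 1839 CPM after siYAP/TAZ, and siCtrl replicate 2 was again below siYAP/TAZ replicate 1. The G2/M markers summed to 2051, 1592 and 1957 CPM in the controls against 1200, 744 and 840 CPM after siYAP/TAZ, with no overlap between groups. Relative to the control mean, siCtrl replicate 2 was at 83.8% for the 40 genes, 85.3% for the G2/M markers and 44.1% for the S-phase markers. The part that cell cycle phase had in the values of the 40 genes was not tested.

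**Figure D5:**
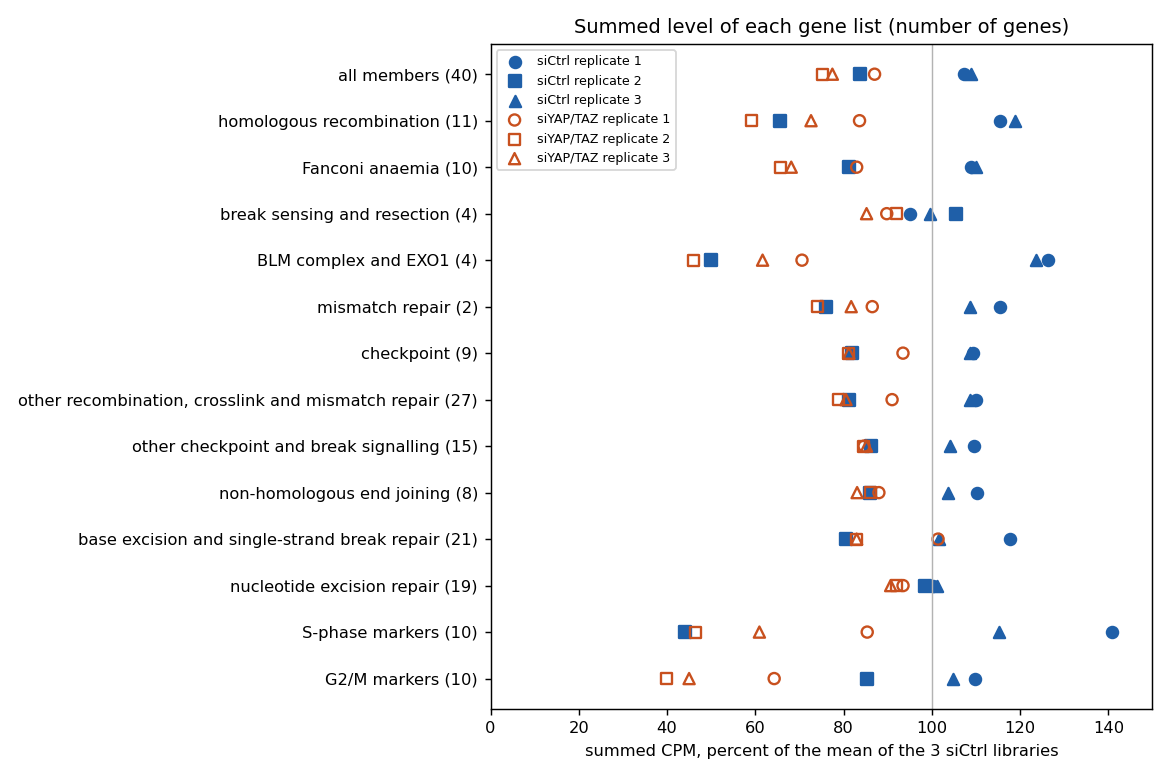
Summed CPM of each gene list in each library as a percent of the mean of the 3 siCtrl libraries (horizontal axis), with the number of genes in parentheses, filled blue symbols for siCtrl and open orange symbols for siYAP/TAZ. siCtrl replicate 2 was at 83.8% of the control mean for all 40 genes and at 85.3% for the G2/M markers, and at 44.1% for the S-phase markers and 49.96% for the 4 genes of the BLM complex list.

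The other repair genes, outside the 40, had medians between those of the 40 and 0. The log2 fold change had a median of -0.30 over 27 other recombination, crosslink and mismatch genes, -0.26 over 15 other checkpoint and break signalling genes, -0.19 over 8 end-joining genes, -0.20 over 20 base excision genes tested of 21 and -0.17 over 19 nucleotide excision genes. It was -0.72 over the S-phase markers and -1.06 over the G2/M markers. None of the repair genes outside the 40 passed the threshold by edgeR with all libraries and no block, with 13 lower and 2 higher at an unadjusted p under 0.05, while DESeq2 called 2 lower and 1 higher. With the block, 1 of the other recombination, crosslink and mismatch genes was called lower (EME1), as were 3 of the other checkpoint genes (WEE1, MDC1 and WDHD1) and 4 of the base excision genes (NEIL3, PARP1, PARP2 and LIG3), and 1 base excision gene, NEIL1, was called higher.

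Of these, NEIL1, a glycosylase that removes oxidised bases, had 0.574, 2.78 and 1.76 CPM in the controls against 4.53, 8.26 and 11.4 CPM after siYAP/TAZ. The groups did not overlap, but the controls held only 2 to 9 counts, and the log2 fold change was 2.22 (adjusted p 0.0685 by edgeR; 0.00666 with the block). NEIL3, a related glycosylase that also unhooks crosslinks, had 32.5, 15.4 and 37.4 CPM in the controls against 16.1, 8.93 and 10.3 CPM after siYAP/TAZ, with overlap at siCtrl replicate 2 (log2 fold change -1.26, adjusted p of 0.102 by edgeR; 0.00943 with the block). In the other lists, the log2 fold changes farthest from 0, none of them past the threshold in edgeR with all libraries and no block, were those of SLX4 (-0.86), a scaffold of crosslink nucleases, and FANCB (-0.79), a core subunit, among the recombination and crosslink genes. Among the other checkpoint genes they were those of MDC1 (-0.82), a mediator at broken ends, and WDHD1 (-0.77), a replication factor, and among the end-joining genes those of NHEJ1 (0.46) and DCLRE1C (-0.33). GTF2H2, a TFIIH subunit of nucleotide excision repair with near-identical copies, was at -0.57. Of the G2/M markers 5 of 10 fell past the threshold, with log2 fold changes of -1.31 for BUB1, -1.20 for AURKB, -1.17 for CENPE, -0.89 for CCNB1 and -0.85 for TOP2A, and all 10 had groups that did not overlap. With either of siCtrl replicates 1 and 3 or of siYAP/TAZ replicates 2 and 3 left out, 0 of these markers passed in edgeR and all 10 had an unadjusted p under 0.05. None of the S-phase markers passed the threshold by edgeR with all libraries and no block, with 1 at an unadjusted p under 0.05, and 0 were called by DESeq2. With the block 2 were called lower, GINS2 and TYMS, and 8 were lower at an unadjusted p under 0.05. Without siCtrl replicate 2, 8 were called lower, and without both libraries with disagreeing labels 6. With any other single library left out, 0 were called.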

How the data were processed

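MCF10A cells had been transfected with 20 nM siRNA, and RNA was made into QuantSeq 3′ mRNA-Seq libraries, 3 of siCtrl and 3 of siYAP/TAZ. The authors deposited raw counts per Entrez gene, with 23459 genes and 0 unnamed rows; the submitters' processing notes name cutadapt 4.2, Bowtie2 2.3.5.1 and hg19. The annotation and use of strand in counting are not given in the sources used here. Symbols came from the RefSeq table of GRCh38.p14 and matched 23308 genes. Gene coordinates are on GRCh37, the coordinates of hg19, and promoter sequences on GRCh38.p14. Groups and replicate numbers follow the sample descriptions, which are the column names. For 2 libraries the titles and genotypes name the other group. The replicate numbers in the titles also differ from those of the descriptions for libraries of both groups.

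Differential expression was tested with edgeR 4.0.16 (R 4.3.3) by the quasi-likelihood F test on the deposited counts, with the default filter on low counts, scaling by TMM, a model of group alone and p-values adjusted over 12510 genes by the Benjamini-Hochberg method. An adjusted p under 0.05 was the threshold, and intervals are at 95%. The alternatives were DESeq2 1.42.0, RLE or library-size scaling, no filter, robust dispersion, a minimum mean of 50 counts, the replicate block, each library left out, the groups of the titles, and both libraries with disagreeing labels left out. The procedure was checked on simulated counts that held group effects and no replicate effect, so the check does not bear on the deviations of replicate 2. The floor for a gene with no reads is 3 counts, or 0.680 to 0.992 CPM after TMM correction, for counting error only.

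The replicate numbers come from the descriptions, so the pairs and the replicate block rest on those labels. Pairs by the numbers in the titles were not tried. Deviations from the group means correlated between libraries of the same number across genes with r of 0.43, 0.35 and 0.13. All were over 0.1, a fixed limit and not a test. Libraries of one number were therefore paired in the replicate block and in the counts by pair. The model of group alone did not pair them. The 40 genes and all lists were chosen with earlier results of these data known. Full values were given for genes past the threshold, for those past it with the block alone and for the gene with the smallest fold change in each role, and of the other lists for those past it and at most 2 with the largest fold change. The values of 1 nucleotide excision gene are not reported here.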

Additional observations from a re-analysis of the deposited data

How the results depend on the processing

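Over 15 alternatives the 40 genes gave 593 fold changes, of which 27 from 11 genes had the opposite sign to the value reported, and the other 29 genes kept their sign in every alternative that tested them. Counts of calls moved more. In the whole table, where 152 genes were called lower and 93 higher, DESeq2 called 333 and 254, the fit with no low-count filter 299 and 257, the replicate block 680 and 583, the groups of the titles 0 and 0, and the fit without both libraries with disagreeing labels 591 and 592; leaving out 1 library gave 10 to 798 and 6 to 781. Of the 40 genes, 8 were called lower with the replicate block, 13 without both of those libraries, 0 with the titles in edgeR (2 at an unadjusted p under 0.05) and 0 to 16 with 1 library left out, the 16 without siCtrl replicate 2. With the titles, the log2 fold change was 0.26 for RAD54L, 0.17 for XRCC3, 0.10 for RAD50, -0.0651 for ATR, 0.0694 for ATRIP and 0.0864 for CHEK2, and -0.26 for YAP1 and -0.22 for WWTR1, both no longer past the threshold. Without both libraries it was 0.17 for RAD54L, 0.0345 for RAD50 and -0.022 for ATR. With 1 library left out it ran from -0.27 to 0.0919 for PALB2, -0.19 to 0.11 for RAD54L, -0.53 to 0.0924 for XRCC3, -0.28 to 0.0128 for FANCC, -0.15 to 0.10 for RAD50, -0.19 to 0.0825 for NBN, -0.23 to 0.37 for PMS2, -0.15 to 0.16 for ATM, -0.0598 to 0.0849 for ATR, -0.43 to 0.0018 for CHEK2, -0.84 to -0.77 for YAP1 and -0.75 to -0.62 for WWTR1. The block removed no call of a member made without it. The cause of these shifts was not tested. With 3 libraries a group and 134 counts over all libraries for PMS2, the intervals of the low genes were wide.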
